A study of Mus musculus with 383 samples.

Results

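The DNA replication and S phase genes described here are 31 genes from a list of the machinery that copies the genome, out of 49585 genes in the deposited count table. They were read in single tumour cells of mouse skin squamous cell carcinomas, which arose in mice carrying Lgr5CreER, p53fl/fl and Rosa26-YFP among their alleles. The Lgr5 promoter drives a tamoxifen-inducible Cre recombinase in hair follicle stem cells, and recombination is meant to delete p53 and switch on YFP. Both populations were sorted as YFP-positive, the mark of recombination at Rosa26, so neither serves as an unmutated control, and recombination of p53 in each cell was not checked here. One population was sorted as Epcam-positive (70 wells of 1 cell) and the other as Epcam-negative (310 wells of 1 cell), and the question of the design was how their transcription differs. The labels give no age, sex, animal, tumour number or time after induction.

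Before a cell divides, a ring-shaped helicase built from Mcm2 to Mcm7 is loaded at origins with the help of Cdc6 and Cdt1, and Cdc45 and the GINS complex then turn it into a moving fork. Primase and polymerase alpha start each strand, the clamp Pcna and its loaders hold the polymerases on DNA, and ribonucleotide reductase and thymidylate synthase supply the building blocks. Many of these genes are transcribed in a wave around the entry into S phase, under the control of E2F transcription factors and cyclin E, and in skin tumours they are used to see which cells cycle.

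Cells were kept with at least 100000 gene reads, 2000 detected genes, at most 20% mitochondrial and at most 50% spike-in reads, which kept 62 of the 70 Epcam-positive cells and all but 47 of the 310 Epcam-negative cells. Gene reads per kept cell ran from 109743 to 730528 and from 104330 to 900492 in these populations, with medians of 413142 and 414731. The median cell had 6996 and 6584 detected genes, and 221.1 and 157.2 gene reads per spike-in read. Epcam transcript was present in 60 of 62 kept cells of the first population and in 10 kept cells of the second. The 8 epithelial markers summed to 26115 and 2788 reads per 1000000 gene reads (CPM), and the 8 mesenchymal markers to 793 and 22151 CPM. The 7 immune markers summed to 25.4 and 18.1 CPM, mainly Cd68 (15.3 and 7.99 CPM), Lyz2 (9.54 and 3.74 CPM) and Cd3e (0.604 and 6.18 CPM). Reads of Ptprc numbered 0 and 10, and Adgre1 was at 0 in both populations. The 4 endothelial markers summed to 15.7 and 4.66 CPM, mainly Pecam1, with Emcn at 0 in both. The part of such cells in the results was not tested. The Epcam-positive well labelled as holding 0 cells had 99241 gene reads and 896 reads of Krt14, which goes against its label, and it enters no value here. Epcam-positive cells filled plate rows A to C and Epcam-negative cells rows D to P, so population and plate row cannot be told apart. The labels name no animal, so each population counts as 1 sample and no test between them was made. All 95% intervals cover counting error only and no spread between animals. Those of levels and ratios treat reads as independent. PCR copies of a molecule cannot be told from separate molecules in this assay, and reads cluster in cells. The intervals of levels and ratios may therefore be too narrow even for counting error.

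Nearly every replication gene was at a lower level in the Epcam-negative population. Summed over all 31 genes the level was 1691 CPM among Epcam-positive cells and 936 CPM among Epcam-negative cells, and pairs of values from here on give the Epcam-positive population first. The log2 ratio of Epcam-negative over Epcam-positive, on the CPM + 1 scale used for all ratios here, was below 0 for 29 of the 31 genes, against 53.5% of the 10434 genes with a mean of at least 5 CPM. It was at or past 2-fold lower for 12 genes, against 12.6% of those genes, and 2-fold or more higher for 0, against 15%. The median ratio was -0.84 over the members and -0.07 over the 10434 genes. Of the 31 members, 28 reached a mean of 5 CPM, and the other 3 were Cdc6, Fen1 and Ccne2. The exceptions to the direction were Cdc6 and E2f1. With spike-in reads as the scale the median ratio was -1.09, and that of all genes was -0.42. On that scale the ratio of E2f1 was -0.14. In bulk sums fewer cells with a transcript and less of it per cell cannot be told apart.

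The difference varied with plate position, taken as the left columns of the plate (columns 1 to 12) and the right columns (columns 13 to 24), which both held cells of each population. The median ratio was -1.11 in the left columns, where 29 members were lower, against -0.47 with 24 members lower in the right columns. The genes lower in both numbered 22, and 6 were 2-fold or more lower in both. Cdc45, Rrm1, Rrm2, Tipin, Clspn, Ccne1 and E2f1 had a ratio above 0 in the right columns, and Cdc6 and Chaf1a in the left columns. A few cells carried much of the signal. In the Epcam-positive cells 21 of the 31 members had their most reads in one of only 3 cells, and in the Epcam-negative cells 13 did. These 3 Epcam-positive cells all stood in left columns (columns 5, 8 and 9). Their part in the difference between the left and right columns was not tested. Leaving out the 5% of cells with the most member reads in each population, 3 and 13 cells that held 23.6% and 29.4% of the member reads, left a median ratio of -0.87 with 29 members lower. Leaving out instead, for each gene, the cell with its most reads in each population left a median of -0.69 with 28 members lower.

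**Figure D1:**
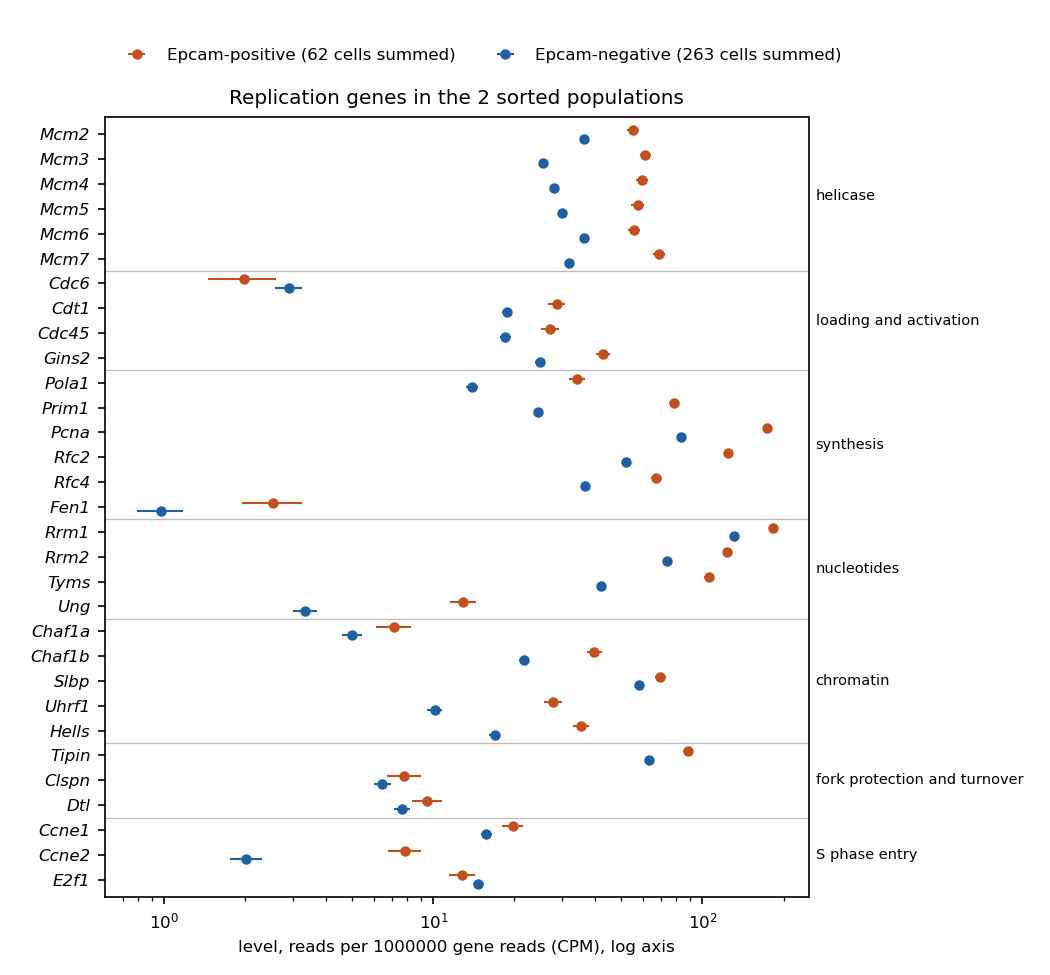
Level of each replication gene (CPM, log axis) in the summed reads of the kept Epcam-positive and Epcam-negative cells, grouped by role. Bars are exact 95% Poisson intervals of the reads. The Epcam-positive point lies to the right for every gene except Cdc6 and E2f1.

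The 6 Mcm genes encode the subunits of the replicative helicase, and all 6 were lower in Epcam-negative cells, with a median ratio of -0.98 and 3 genes past 2-fold. Mcm3 had 61.4 CPM (58.4 to 64.5) and 25.6 CPM (24.6 to 26.6), a ratio of -1.23 (-1.32 to -1.14). Single cells ran from 0 over a median of 0 to 691 CPM of Mcm3 in the first population and from 0 over 0 to 792 CPM in the second, so the populations overlapped. Mcm3 was present, that is with at least 5 of 100000 reads to which each cell was thinned, in 17 cells (27.4%, 16.9 to 40.2) and in 33 cells (12.5%, 8.80 to 17.2). The median level among cells with Mcm3 was 156.1 and 90.9 CPM. Without thinning, 43.5% and 32.7% of cells had at least 1 read of Mcm3. Mcm4 was at 59.6 and 28.1 CPM and was present in 38.7% and 17.9% of cells. Mcm7 was at 68.9 and 31.8 CPM and present in 40.3% and 18.6%, but 23.3% of its 50-base windows also occur in another gene, mainly the gene model Gm5487. Mcm5 had 57.4 and 30.2 CPM, a ratio of -0.91. Smaller differences were seen for Mcm2, at 55.3 and 36.3 CPM, and Mcm6, at 55.7 and 36.1 CPM, with ratios of -0.59 and -0.61. For Mcm2 that difference was in the left columns (-0.98) and not in the right columns (-0.01). One cell in a left column held 25.8% of the Epcam-positive reads of Mcm2. Without the cell with most Mcm2 reads in each population the ratio was -0.29.

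Per kilobase of exon the 6 subunits lay within 7.95 to 16.6 CPM per kb and 5.22 to 7.82 CPM per kb, with Mcm2 lowest and Mcm4 highest in both. All 6 were present together in 6 Epcam-positive cells (9.68%, 3.63 to 19.9) and likewise in 6 Epcam-negative cells (2.28%, 0.842 to 4.899). None of the 6 was present in 32.3% and 55.5% of cells. With 0 to 2 subunits present stood 47 Epcam-positive cells (75.8%) and 86.3% of Epcam-negative cells, with 5 or 6 stood 12 (19.4%) and 5.70%, and in between stood 3 (4.84%) and 7.98%.

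Mcm2, Mcm3, Mcm5 and Mcm6 are shown with the 250 bases before their start sites. Mcm2, Mcm3 and Mcm6 were the members that followed the number of the others present most closely in Epcam-positive cells. Mcm5 (a correlation of 0.66) is shown as a further Mcm gene and not by that rank. Rrm2 (0.69), Rfc4 (0.67) and Hells (0.67) also stood above it there. The sequences are RefSeq promoter windows on build GRCm38.p6, on the strand of the gene and from 5′ to 3′. Capitals mark the words TTTCCCGC, TTTGGCGC, TTTCGCGC and TTTGCCGC, which are forms of the E2F site, and CCAAT, each searched on both strands.
Mcm2, chr6:88898781-88899030, minus strand: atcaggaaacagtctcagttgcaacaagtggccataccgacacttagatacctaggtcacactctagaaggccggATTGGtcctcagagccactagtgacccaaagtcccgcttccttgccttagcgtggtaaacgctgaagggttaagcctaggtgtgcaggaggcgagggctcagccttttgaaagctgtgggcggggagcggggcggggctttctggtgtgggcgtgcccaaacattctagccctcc
Mcm3, chr1:20820313-20820562, minus strand: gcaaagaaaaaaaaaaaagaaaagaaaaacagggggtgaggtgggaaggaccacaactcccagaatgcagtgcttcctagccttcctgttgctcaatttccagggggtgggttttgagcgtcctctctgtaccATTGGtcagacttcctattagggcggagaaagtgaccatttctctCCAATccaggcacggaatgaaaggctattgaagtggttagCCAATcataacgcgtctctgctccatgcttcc
Mcm5, chr8:75109259-75109508, plus strand: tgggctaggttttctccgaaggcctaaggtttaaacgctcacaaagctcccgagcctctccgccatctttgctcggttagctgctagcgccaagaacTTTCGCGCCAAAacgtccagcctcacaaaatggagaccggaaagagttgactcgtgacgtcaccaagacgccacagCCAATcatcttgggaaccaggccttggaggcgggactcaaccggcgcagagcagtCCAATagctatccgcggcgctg
Mcm6, chr1:128359706-128359955, minus strand: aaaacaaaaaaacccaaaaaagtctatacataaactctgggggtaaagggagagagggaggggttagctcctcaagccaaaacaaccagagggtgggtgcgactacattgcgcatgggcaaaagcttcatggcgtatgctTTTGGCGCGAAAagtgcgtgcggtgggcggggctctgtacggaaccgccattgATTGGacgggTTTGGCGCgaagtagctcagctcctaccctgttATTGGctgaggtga
Mcm5 held 2 E2F words that overlap and Mcm6 held 3, of which 2 overlap, while Mcm2 and Mcm3 held none of these exact words. CCAAT was found in all 4 windows, 1 time in Mcm2, 3 times in Mcm3, and 2 times each in Mcm5 and Mcm6. Windows matched 26 of the 31 members. An E2F word was in a window of 8 of these 26 genes, namely Cdc6, Dtl, Hells, Mcm5, Mcm6, Mcm7, Pola1 and Uhrf1. By window, that is 27.6% of 29 member windows and 2.35% of 21263 protein-coding windows of the same length. CCAAT was in 62.1% of member windows and 35.4% of all windows, and TTTGAA, the core of the CHR element of G2 and M phase genes, in 10.3% and 14.5%. Member windows were richer in G and C, at a median of 62.4% against 55.6%. A match is a string of letters and not a measured binding site.

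Of the loading and activation factors, none was past 2-fold. Gins2, a GINS subunit, was at 42.6 and 24.9 CPM, a ratio of -0.75, and 67.3% of its exon bases overlap Gse1 on the other strand. Cdt1, which loads the helicase, was at 28.7 and 18.8 CPM and present in 17.7% and 12.5% of cells. Cdc45, which activates it, was at 27.1 and 18.5 CPM, but its ratio of -0.53 was -1.07 in the left columns and 0.54 in the right columns. One cell held 40.2% of its Epcam-positive reads, and without the cell with most reads in each population the levels were 16.6 and 16.5 CPM, a ratio of -0.0089. Cdc6 was close to the limit of detection, with reads in 2 and 15 cells. Its level of 1.97 (1.46 to 2.61) and 2.90 CPM (2.58 to 3.24) gave a ratio of 0.39, and 83.7% of the Epcam-positive reads came from 1 cell.

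Genes of DNA synthesis had the lowest median ratio of all roles, -1.15, and 4 of the 6 were past 2-fold. Prim1, the catalytic subunit of primase, had 78.3 CPM (74.8 to 81.8) and 24.6 CPM (23.7 to 25.5), a ratio of -1.63 (-1.71 to -1.55). Cells ran from 0 over a median of 0.833 to 652 CPM of Prim1 in the Epcam-positive and from 0 over 0 to 500.0 CPM in the Epcam-negative population. Prim1 was present in 30.6% (19.6 to 43.6) and 10.6% (7.19 to 15.02) of cells, while the median level among cells with it was 166.8 and 156.4 CPM. Its ratio was -2.18 in the left columns and -0.82 in the right columns. Pola1, the catalytic subunit of polymerase alpha, was at 34.2 and 13.96 CPM and present in 22.6% and 9.51% of cells, with ratios of -1.34 and -1.10 in the left and right columns.

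Pcna, the sliding clamp, was the most widespread member. Its transcript was found at the presence level in 83.9% (72.3 to 91.98) and 54.8% (48.5 to 60.9) of cells. Cells ran from 0 over a median of 153.5 to 985 CPM and from 0 over 53.3 to 653 CPM. The summed levels of 173.7 and 83.1 CPM gave a ratio of -1.05, which was -0.98 and -1.13 in the left and right columns. Of its 50-base windows, 19.1% also occur in another gene, the pseudogene Pcna-ps2. Rfc2, a subunit of the clamp loader with 15.1% of its exon bases in Lat2 on the other strand, was at 124.9 and 51.8 CPM, a ratio of -1.25 in all cells and of -1.23 and -1.27 in the left and right columns. Rfc4, a second subunit, was at 67.4 and 36.6 CPM, with ratios of -1.49 and -0.11 in the left and right columns. Of its exon bases, 12.65% overlap Eif4a2 on the other strand. Fen1, the flap endonuclease, was listed at only 2.54 and 0.969 CPM, and 84.2% of its exon bases overlap genes on the other strand. It was present in 0 cells of either population, and taking 3 cells as the limit of a count of 0 allows shares of up to 4.84% and 1.14%. At least 1 read of Fen1 was found in 24.2% and 14.45% of cells.

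Among the genes of nucleotide supply and uracil removal, Rrm1 and Rrm2 encode the subunits of ribonucleotide reductase. Rrm1 was at 16.6 and 11.9 CPM per kb of exon and present in 58.1% and 42.97% of cells, and Rrm2 was at 44.6 and 26.7 CPM per kb and present in 35.5% and 26.2%. Their CPM gave ratios of -0.48 and -0.73. Both were lower in the left columns (-0.90 and -1.16) and not in the right columns (0.15 and 0.07). Tyms, thymidylate synthase, was at 105.4 CPM (101.4 to 109.5) and 41.9 CPM (40.7 to 43.2), a ratio of -1.31 (-1.38 to -1.24). The median cell had 42.2 CPM of Tyms in the Epcam-positive and 4.69 CPM in the Epcam-negative population, with highest cells at 586 and 498 CPM. Tyms was present in 45.2% and 24.7% of cells. Ung, the uracil DNA glycosylase, had the lowest ratio of all members, -1.68, at 12.9 and 3.34 CPM, but it was present in only 5 and 6 cells.

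The chromatin group held 5 genes. Uhrf1, which keeps DNA methylation on new strands, was at 27.9 CPM (25.9 to 30.1) and 10.1 CPM (9.51 to 10.7), and was present in 21.0% and 6.46% of cells. Among cells with Uhrf1 the median level was 83.9 and 90.1 CPM. Its ratio of -1.38 was -1.90 in the left columns and -0.47 in the right columns, and 15.4% of its windows occur in another gene. Hells, a chromatin remodeller, was at 35.4 and 16.9 CPM, a ratio of -1.02 that was -1.48 in the left columns and -0.0042 in the right columns. Chaf1b, of the histone chaperone CAF-1, was at 39.6 and 21.7 CPM and present in 29.03% and 11.8% of cells. Its partner Chaf1a was at 7.12 and 5.00 CPM, with ratios of 0.11 and -1.44 in the left and right columns, and 52.5% of its exon bases overlap Ubxn6. Slbp, which binds the stem-loop of histone mRNA, differed least in this group, at 69.6 and 58.1 CPM, a ratio of -0.26 that was -0.25 in both sets.

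Genes of fork protection and protein turnover differed less. Tipin, which stabilises the fork, was at 88.6 and 63.5 CPM and present in 37.1% and 30.8% of cells. Clspn, an adaptor of the checkpoint at stalled forks, was at 7.81 and 6.47 CPM, with ratios of -1.29 and 0.90 in the left and right columns. Dtl, which directs Cdt1 to degradation, was at 9.50 and 7.67 CPM. The genes of S phase entry showed no common direction. Ccne1 was at 19.7 and 15.7 CPM, a ratio of -0.31, but 55.9% of its Epcam-positive reads came from 1 cell, and without the cell with most reads in each population the levels were 8.91 and 14.3 CPM. Ccne2 was at 7.85 and 2.01 CPM, a ratio of -1.56, with the gene present in 4 and 2 cells, and 17.4% of its exon bases overlap Ints8. E2f1, the activating transcription factor, was at 12.8 CPM (11.4 to 14.2) and 14.7 CPM (13.99 to 15.4), a ratio of 0.19. E2f1 was present in 3 and 28 cells, and its ratio was -0.41 in the left columns and 1.72 in the right columns. Without the cell with most E2f1 reads in each population the levels were 8.31 and 13.8 CPM, a ratio of 0.67.

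Levels compared per kilobase of exon placed Pcna first in both populations, at 72.4 and 34.6 CPM per kb, followed by Tipin at 47.4 and 33.98, Rrm2 at 44.6 and 26.7 and Rfc4 at 43.99 and 23.8 CPM per kb. The lowest values were those of Cdc6 in the Epcam-positive population, at 0.377 CPM per kb, and of Fen1 in the Epcam-negative one, at 0.400 CPM per kb. Dtl, Chaf1a and Clspn also lay at or below 1.09 CPM per kb in both.

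The share of cells in which a member was present was higher in the Epcam-positive population for 28 of 31 genes, equal for Fen1 and lower for Cdc6 and E2f1, against 58.1% of the 10434 genes higher in that population. With at least 1 unthinned read in place of presence, it was higher for 28 genes, against 59.9%. Among the 21 members present in at least 10 cells of each population, the ratio of shares, Epcam-positive over Epcam-negative, had a median of 1.83 (1.21 to 3.24). The ratio of the median levels in the cells with the gene had a median of 1.22 and ran from 0.805 to 1.91. The ratio of shares was the larger of the 2 for 17 of the 21 genes. Presence was called at a fixed 50 CPM, so that a lower level also moves a cell below the line. By cells with at least 1 read the ratio of shares had a median of 1.365 (1.035 to 1.96). It was larger than the ratio of levels, still taken in cells with the gene present, for 12 of the 21. The number of genes with the larger ratio of shares thus changed with the line.

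Counted per cell, 5 or more of the 31 genes were present in 41 cells of the Epcam-positive population (66.1%, 52.99 to 77.7) and in 93 of the Epcam-negative one (35.4%, 29.6 to 41.5). The median cell had 5 genes present (quartiles 4 and 11) in the Epcam-positive and 3 (quartiles 2 and 6) in the Epcam-negative population, and the highest cells had 25 and 23. The cut of 5 is a range and not a cell type, since 9 and 34 cells stood at 4 genes and 12 and 26 at 5. At 8 or more genes the shares were 40.3% and 18.3%. The shares with 5 or more were 70.97% and 35% in the left columns and 61.3% and 35.8% in the right columns. Cells with at least 1 gene present made up 96.8% and 96.6%. The summed level per cell ran from 20.8 over a median of 829 to 6617 CPM and from 0 over 540 to 7817 CPM. Among cells under 5 genes the medians were 412 and 391 CPM, and among cells at 5 or more they were 1235 and 1044 CPM. The cells with 5 or more genes held 89.6% and 68.2% of the members' CPM summed over cells. The cut counts these same genes, so a higher summed level in the cells above it follows from the cut.

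**Figure D2:**
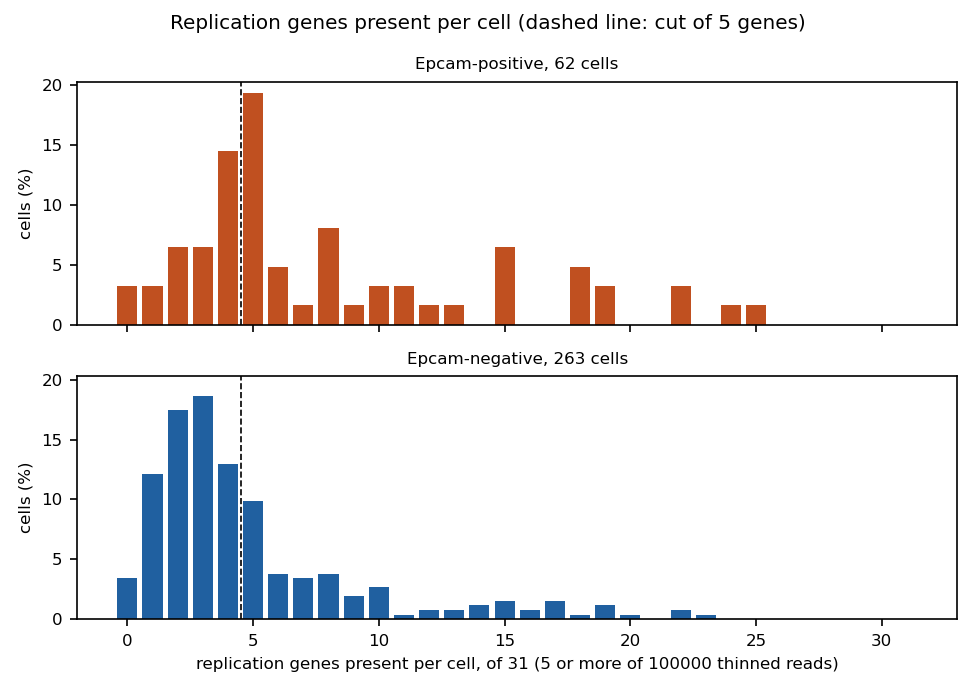
Percent of cells (vertical axis) by number of replication genes present (horizontal axis, of 31) in the kept cells of each population. The Epcam-positive cells peak at 5 genes and extend to 25, and the Epcam-negative cells peak at 3 and extend to 23.

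By role, the share of cells with any gene present also rises with the number of genes in the role. A synthesis gene (of 6, among them Pcna, which alone was present in 83.9% and 54.8%) was present in 90.3% of Epcam-positive and 73.4% of Epcam-negative cells, an Mcm gene (of 6) in 67.7% and 44.5%, a nucleotide gene (of 4) in 70.97% and 60.1%, and a chromatin gene (of 5) in 64.5% and 45.6%. A loading or activation gene (of 4) was present in 48.4% and 31.9%, and a gene of fork protection and turnover (of 3) in 38.7% and 33.1%. A gene of S phase entry (of 3) was present in only 17.7% (9.20 to 29.5) and 20.5% (15.8 to 25.9). All 11 Epcam-positive cells with an S phase entry gene, and 38 of 54 such Epcam-negative cells, had 5 or more members present, a count that includes the entry genes themselves.

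**Figure D3:**
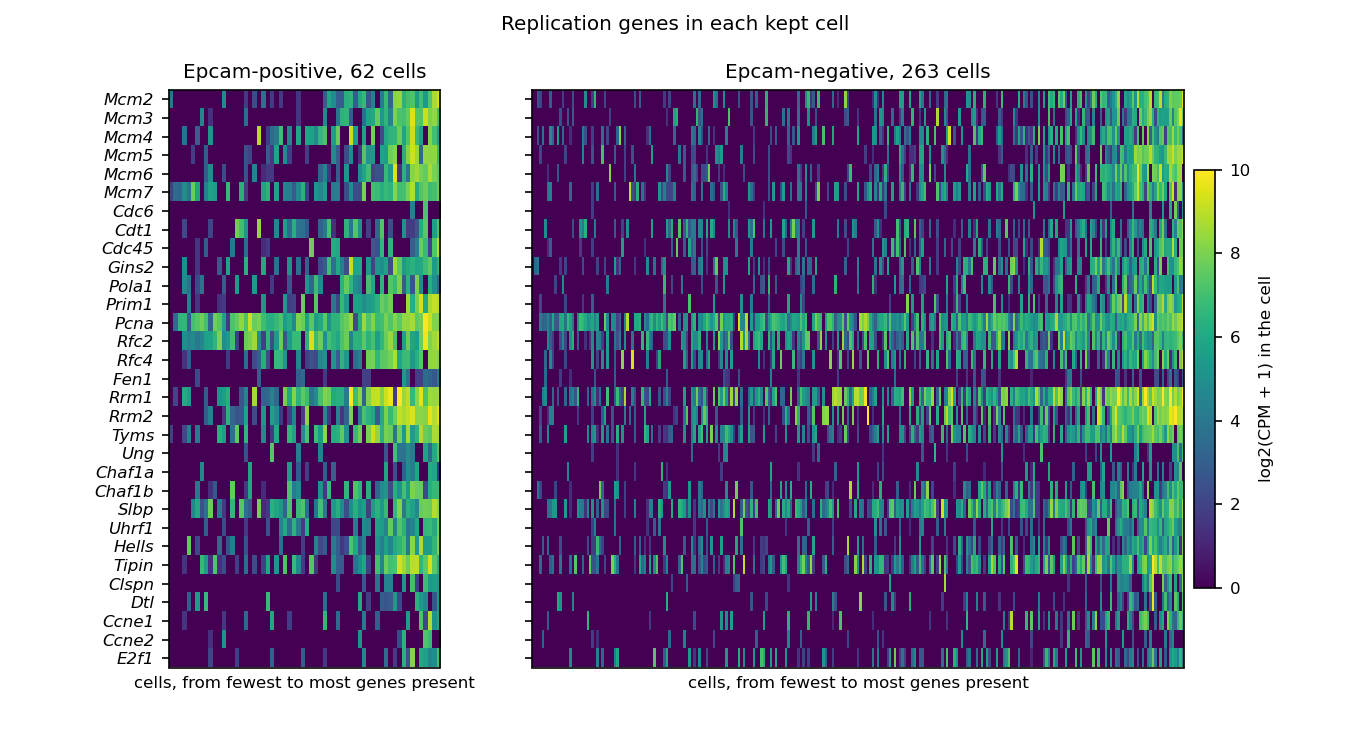
log2(CPM + 1) of the 31 replication genes (rows) in each kept Epcam-positive and Epcam-negative cell (columns), ordered from the fewest to the most genes present. Pcna, Rrm1, Slbp and Rfc2 are seen across most of the range, while Mcm2 to Mcm6, Prim1 and Rrm2 are mainly in the cells at the right.

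Correlations between members across cells were mostly positive. Across the 62 Epcam-positive cells the Spearman correlation of CPM between 2 members was above 0 for 462 of 465 pairs, with a median of 0.36. Across Epcam-negative cells it was above 0 for 463 of 465, with a median of 0.23. Points share their library and its depth, and the median correlation of a member with the number of genes detected was 0.23 and 0.34. Cells with both genes of a pair present were more frequent than the product of the 2 shares for 393 and 410 of the 465 pairs, and 49 and 47 pairs were present together in no cell. Other gene pairs were not computed. Pairs among the 6 Mcm genes had medians of 0.55 and 0.41. The highest pair in Epcam-positive cells was Mcm3 with Mcm6, at 0.75, which were present together in 11 cells (17.7%) where the product of their shares gives 5.75%. In Epcam-negative cells it was Mcm5 with Uhrf1, at 0.54, present together in 13 cells (4.94%) against a product of 0.811%.

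Correlated with the number of the other members present, Mcm2 and Mcm3 (both 0.76), Mcm6 (0.70) and Rrm2 (0.69) led in the first population. In the second, Prim1 (0.50), Uhrf1 (0.48), Mcm6 (0.46) and Pola1 (0.45) led. Pcna stood lower, at 0.40 and 0.20, as did Cdt1 at 0.28 and 0.19 and Ccne2 at 0.23 and 0.16.

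**Figure D4:**
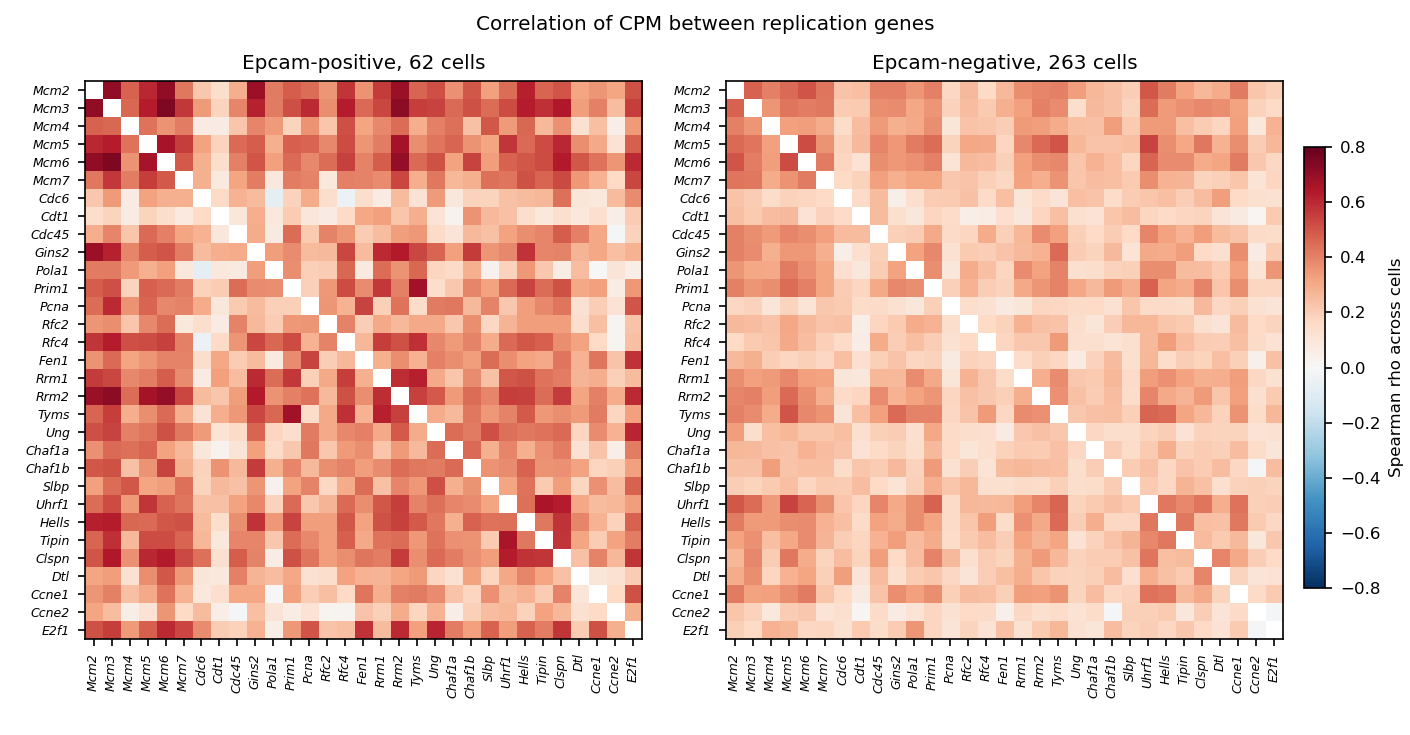
Spearman correlation (colour scale) of CPM across cells for each pair of replication genes, with the Epcam-positive cells at the left and the Epcam-negative cells at the right. The Mcm genes, Rrm2, Hells and Clspn form the darkest blocks at the left, and most pairs at the right are above 0 but paler.

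The replication genes were then set against 25 genes of G2 and M phase, which serve chromosome segregation. The number of members present correlated with the number of G2 and M genes present at 0.67 and 0.49. It also correlated with gene reads per spike-in read, a measure of RNA content, at 0.39 and 0.46, with detected genes at 0.33 and 0.49, and with gene reads at 0.21 and 0.30. The part of RNA content and depth in these relations was not tested. Cells with 5 or more G2 and M genes numbered 22 and 33, and 21 and 29 of them also had 5 or more replication genes. The converse did not hold as often, since 20 of 41 Epcam-positive and 64 of 93 Epcam-negative cells with 5 or more replication genes had under 5 G2 and M genes. Both counts were under 5 in 32.3% (20.9 to 45.3) and 63.1% (56.97 to 68.96) of cells.

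Members differed in how far they followed the G2 and M genes. Rrm1 (0.70), Tyms (0.64), Prim1 (0.64) and Mcm3 (0.62) had the highest correlations of CPM with the G2 and M count in Epcam-positive cells, and Uhrf1 (0.52) and Prim1 (0.49) in Epcam-negative cells. Pcna (0.19 and 0.08), Ung (0.12 and 0.15), Slbp (0.20 and 0.19) and Cdc6 (0.14 and 0.16) had low values in both.

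**Figure D5:**
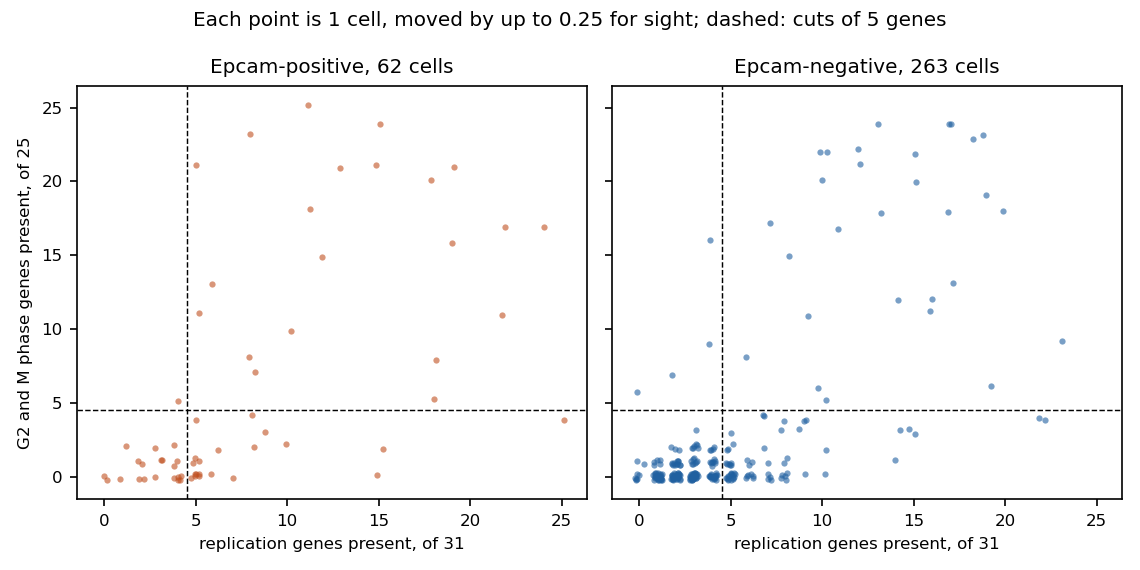
Number of G2 and M phase genes present (vertical, of 25) against the number of replication genes present (horizontal, of 31) in each Epcam-positive (left) and Epcam-negative (right) cell, with cuts of 5 dashed and points moved by up to 0.25 for sight. Only 1 and 4 cells lie at the upper left, with 5 or more G2 and M genes and under 5 replication genes.

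A list of 64 other genes of the same pathway was read beyond the members. Of the 64, 53 (82.8%) were lower in Epcam-negative cells, against 53.5% of the 10434 genes. Of the 53, 18 passed 2-fold (28.1% of the 64, against 12.6% of the 10434), and the median ratio of the 64 was -0.63. The lowest ratios among those with a mean of 5 CPM were those of Pole2, a polymerase epsilon subunit (29.2 and 6.40 CPM, -2.03), the regulator Mybl2 (13.8 and 2.79 CPM, -1.97), thymidine kinase Tk1 (98.95 and 26.7 CPM, -1.85) and the repressor E2f8 (17.2 and 4.42 CPM, -1.75). Donson, a replisome factor, went the other way, at 2.33 and 7.69 CPM, a ratio of 1.38. Of the 25 G2 and M genes 24 (96%) were lower and 14 (56%) passed 2-fold, at a median ratio of -1.03. They were led by Cdca8 (93.2 and 25.6 CPM) and Birc5 (164.5 and 45.9 CPM).

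The 18 genes of G1 control did not share this direction. Only 7 (38.9%) were lower, with a median ratio of 0.24. Of the 18, 2 were 2-fold lower and 2 were 2-fold higher (11.1% each), against 12.6% and 15% of the 10434 genes. Cdkn1c, an inhibitor of cyclin-dependent kinases, was at 3.38 and 109.1 CPM, a ratio of 4.65. Myc, an activator of growth and cycle entry, was at 106.5 and 275.1 CPM. Rbl1, a pocket protein that is itself a target of E2F, was at 33.3 and 10.9 CPM, and Cdkn1a, the inhibitor p21, had a ratio of -1.06 and was present in 85.5% and 57.8% of cells. Within a population the number of members present correlated with Cdkn1a CPM at -0.36 and 0.06, and with Ccnd1 CPM at 0.12 and 0.47.

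Outside the 31 members, the genes whose CPM followed the number of members present most closely were ranked among 7328 and 7398 genes over the kept cells of each population. In Epcam-positive cells they were Pclaf (0.75), which encodes a partner of the clamp, Tuba1b (0.74), Alyref (0.73), Smc2 (0.72), Gmnn (0.72), Pmf1 (0.69), Syce2 (0.69), Cenph (0.68), Ccna2 (0.67) and Snrpb (0.66). In Epcam-negative cells 9 of the 10 were Tuba1b (0.55), Ran (0.54), Pclaf (0.53), Dctpp1 (0.53), Jpt1 (0.52), Birc5 (0.51), Eno1 (0.50), Racgap1 (0.50) and Eno1b (0.50), a close copy of Eno1 with which it may share reads. Of these, Gmnn and Dctpp1 also belong to the other replication genes above, and Ccna2 and Birc5 to the G2 and M genes. Pclaf and Tuba1b were in both sets of 10. Pclaf was at 47.8 and 18.2 CPM, while Tuba1b, an alpha tubulin, was at 126.3 and 111.3 CPM, a ratio of -0.18.

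At the other end of the ranking the 10 lowest correlations in Epcam-negative cells, shown after their values were seen, were those of Col3a1 (-0.42), Postn (-0.41), Mmp2 (-0.40), Cst3 (-0.40), Sparc (-0.40), Col5a2 (-0.40), Fstl1 (-0.39), C1s1 (-0.38), Lamp2 (-0.38) and Col1a1 (-0.37). In Epcam-positive cells the 10 lowest ran from Mir22hg (-0.56), Ypel5 (-0.51), Sdc1 (-0.45) and Ptprf (-0.44) over Nr4a2, Ece1, Selenok, Micall1 and Dvl1 to Sqstm1 (-0.43), and no gene was in both sets. The summed CPM of the 8 mesenchymal markers correlated with that number at 0.07 among Epcam-positive cells and at -0.39 among Epcam-negative cells. These markers include Col3a1 and Col1a1 named above, so the sum is not separate from their values. In the Epcam-positive cells their median was 99.96 CPM per cell. For the summed epithelial markers the value was -0.07 among Epcam-positive and 0.18 among Epcam-negative cells. CPM are shares of 1 total, so a gene group that takes many reads lowers the CPM of the rest, and the part of this in the values was not tested. Without the 2 Epcam-positive and 10 Epcam-negative cells whose Epcam transcript goes against the sort, the members' median ratio was -0.87, and 66.7% and 35.2% of cells had 5 or more genes present.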

How the data were processed

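Single cells were profiled by Smart-seq2, which amplifies full-length cDNA. The table deposited by the authors holds unnormalized counts of reads for each gene and spike-in in 383 wells. Per the submitters' processing notes, cutadapt 1.13, STAR 2.5.2b, HTSeq 0.6.0 and the build GRCm38 were used. Which annotation release and strandedness were used is not given in the sources used here. Reads of overlapping genes cannot be told apart. Symbols, positions and exon lengths came from GENCODE vM21, which named 49326 of 49585 genes.

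For each population the reads of its kept cells were added up and scaled to CPM. Ratios are log2 of CPM + 1. Intervals are exact Poisson (CPM), Clopper-Pearson (shares) and conditional binomial (ratios) at 95%. For shares, cells were thinned to 100000 gene reads. A gene was present at 5 or more of them. Only correlations without p-values were computed, and no doublet caller was used, since the labels describe doublet discrimination in the sort. The members, lists and rules were chosen with earlier results of these data known. Named are all 31 members, of the other cell cycle lists the 2 to 4 genes with the largest absolute ratio at a mean of at least 5 CPM and any that go 2-fold against the list, and the 10 genes that follow the member count most closely among those present in at least 10% of cells. Of the 10 in Epcam-negative cells 1 gene is not reported here, nor is 1 allele of the mice. Marker lists are given as sums. Promoters are printed for Mcm2, Mcm3, Mcm5 and Mcm6, while the windows of Mcm7 were counted but not printed. Alternatives covered the cell filter, cell weighting, TMM (edgeR 4.0.16), median-of-ratios and spike-in scaling, the pseudocount, presence rules and plate columns. Analyses ran in Python 3.11.15 (pandas 2.3.3, scipy 1.17.1) and R 4.3.3, and the ratio and thinning steps were tested on simulated data.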

Additional observations from a re-analysis of the deposited data

Results flagged for a closer look

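The comparisons use kept single cells, and replication gene reads were also seen in wells outside them. The Epcam-positive well labelled as holding 0 cells had reads of 26 of the 31 replication genes, 1340 CPM in all, among them 16 of Pcna, 15 of Rrm1 and 10 of Rrm2. It also had 69 reads of Epcam and 8248 detected genes, with 7.66% spike-in reads. The Epcam-negative well labelled as holding 0 cells had 4018 gene reads, 76.2% spike-in reads and 4 reads of 3 members, 2 of them of Slbp. The well labelled as holding 50 Epcam-negative cells had reads of 18 members, 63 reads in all or 407 CPM. Rrm1 led with 10 reads, before Slbp and Tipin with 7 each and Mcm4 with 6. Pcna had 0 reads in this well of 154897 gene reads. In the summed Epcam-negative single cells Pcna was at 83.1 CPM and all members together at 936 CPM. Each of these wells is 1 library, and their difference from the single cells was not tested.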

How the results depend on the processing

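The number of members lower in Epcam-negative cells was between 24 and 30 of 31 in the alternatives that kept all members, and no member past 2-fold in all cells changed sign in any of them. Members under 2-fold did, among them Cdc45, Rrm1, Ccne1, E2f1 and Cdc6. The median ratio of -0.84 moved to -1.09 with spike-in reads as the scale, to -0.59 with a pseudocount of 10 CPM, to -1.11 in plate columns 1 to 12 and to -0.47 in columns 13 to 24. The 12 members 2-fold or more lower became 4 with a pseudocount of 10, 8 with TMM or median-of-ratios scaling and 18 with spike-ins. Of all genes, 12.6% were 2-fold or more lower in the main setting, and 7.14%, 10.3%, 10.6% and 21.8% in these 4. In the 2 sets of plate columns 17 and 9 members were 2-fold or more lower, against 14.1% and 14.7% of all genes. Without the 9 members that share over 10% of exon bases or windows with another gene, an alternative chosen after seeing the data like that without the leading cells, 20 of 22 were lower, 7 were 2-fold lower and the median was -0.60. The shares of cells with 5 or more members present, 66.1% and 35.4%, became 90.3% and 80.6% with presence at 1 thinned read, and 22.6% and 6.08% at 20 reads. With cuts of 3 and 8 members they were 87.1% and 66.9%, and 40.3% and 18.3%. The median number present, 5 and 3, became 10.5 and 8 at 1 read, and 1 in both at 20 reads. With presence at 50 CPM and no thinning the shares were 59.7% and 33.1%, and the median pairwise correlations on thinned reads were 0.32 and 0.20. TMM and median-of-ratios scaling moved the median of all genes to 0.06 and 0.04, and the share of all genes lower from 53.5% to 47.1% and 47.9%. With spike-in reads as the scale 69.1% of all genes were lower. Reads behind Cdc6 were few (49 and 311), and a gene under 50 CPM in a cell counts as not present.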
